A study of Mus musculus with 30 samples.

Results

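9 genes of meiosis and the germ line were followed in mouse embryonic stem cells. In these cells the RNA signal of the transcription factor Nanog fell after doxycycline was withdrawn and rose when it was given back. The 9 genes were Meiob, Cntd1, Sycp3, Sycp1, Hormad1, Dazl, Ddx4, Mael and Stk31. Each was found in the deposited signal table by its gene symbol, among transcript clusters (probe sets for 1 transcription unit) that carry 1 symbol, and of several clusters the brightest over the 30 arrays was taken. All 9 were found, out of 19935 genes with such a cluster. Hormad1 had a further, dimmer cluster, whose values are given beside the main one.

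The cells were a clone labelled AINV15_Nanog_Rescue, made from Ainv15 embryonic stem cells that express rtTA, the protein through which doxycycline switches on a transgene. The clone, called NgR, needs doxycycline (1 ug/ml) for Nanog and was kept on primary mouse embryonic fibroblasts. Affymetrix Mouse Gene 1.0 ST arrays measured total RNA from 10 groups of 3 samples. The groups were day 0 with doxycycline, days 1, 3 and 5 after its withdrawal, and, from each of those days, cells given a 12 h pulse of doxycycline and cells left without it for the same 12 h. The last are called the 12 h controls. Every group was this single clone, so clone and genotype are shared by all arrays. No group stayed on doxycycline beyond day 0, so loss of doxycycline and days in culture cannot be told apart, nor can doxycycline and Nanog. The labels do not name separate cultures, and p-values here therefore measure only the spread between arrays.

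Germ cells halve their chromosome number in meiosis. In its first prophase, programmed breaks in the DNA are repaired against the homologous chromosome, while the synaptonemal complex zips the homologues together along axes of cohesin and axis proteins. A second group of germ cell genes acts on RNA, in translation and in the piRNA pathway, which silences transposons. Many of these genes have promoters rich in CG and are kept silent in embryonic stem cells by DNA methylation and by PRC1.6, a Polycomb complex that contains the E-box binding pair MGA and MAX and the factor E2F6.

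Promoter sequence was available from RefSeq (build GRCm38.p6) for 8 of the 9 genes, with Meiob the exception. The 300 bases around each start, 250 before it and 50 after, were searched on both strands for CACGTG, the E-box bound by MGA and MAX, and for GGCGGGA, an E2F-type sequence. No match of 1 motif overlapped a match of the other in these 8 promoters. CACGTG was found in 7 of the 8 promoters, against 7.24% of 27025 promoters of the same length. GGCGGGA was found in 3 of the 8, Ddx4, Mael and Hormad1, against 11.4%. The 8 promoters held 12 to 38 CG dinucleotides, with the fewest at Cntd1 and the most at Ddx4, against a median of 7 over all promoters (quartiles 3 and 21). Cntd1 (12), Sycp3 (15) and Sycp1 (21) did not exceed the upper quartile. Stk31 and Hormad1 have 2 listed promoters each, of which 1 is described. The 250 bases before the start are printed for Cntd1, Ddx4 and Stk31, which rose after withdrawal. They are also printed for Sycp3, which was not called there but fell in the 12 h controls of days 3 and 5. Dazl is printed because neither motif occurs in its window, and it too was called higher at day 5. Of the genes with CACGTG that are not printed, Mael was called higher at day 5. Sycp1 and Hormad1 were not, in the fit over all arrays. A link between motif and response was not tested. Capitals mark CACGTG or GGCGGGA and each run reads 5′ to 3′ towards the gene.
Cntd1 (chr11:101278953-101279202, plus strand): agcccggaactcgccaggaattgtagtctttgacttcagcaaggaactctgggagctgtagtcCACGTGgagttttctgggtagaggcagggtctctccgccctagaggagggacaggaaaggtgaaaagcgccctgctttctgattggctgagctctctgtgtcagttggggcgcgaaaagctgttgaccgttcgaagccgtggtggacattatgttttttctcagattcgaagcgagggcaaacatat
Ddx4 (chr13:112652311-112652560, minus strand): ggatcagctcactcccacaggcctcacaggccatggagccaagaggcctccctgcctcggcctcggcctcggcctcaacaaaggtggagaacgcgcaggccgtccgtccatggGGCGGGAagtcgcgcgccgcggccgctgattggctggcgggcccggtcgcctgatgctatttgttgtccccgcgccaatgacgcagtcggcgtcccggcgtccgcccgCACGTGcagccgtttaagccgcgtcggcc
Stk31 (chr6:49395289-49395538, plus strand): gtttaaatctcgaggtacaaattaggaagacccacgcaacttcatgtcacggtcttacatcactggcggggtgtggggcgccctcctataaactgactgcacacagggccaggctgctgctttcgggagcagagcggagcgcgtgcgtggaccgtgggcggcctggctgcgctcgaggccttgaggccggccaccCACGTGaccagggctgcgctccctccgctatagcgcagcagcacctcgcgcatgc
Sycp3 (chr10:88459337-88459586, plus strand): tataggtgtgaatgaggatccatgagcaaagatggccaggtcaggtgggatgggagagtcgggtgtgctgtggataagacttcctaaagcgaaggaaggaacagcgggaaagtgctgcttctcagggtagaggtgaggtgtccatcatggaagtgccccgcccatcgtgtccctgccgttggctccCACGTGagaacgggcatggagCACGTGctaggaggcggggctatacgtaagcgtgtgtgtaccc
Dazl (chr17:50293621-50293870, minus strand): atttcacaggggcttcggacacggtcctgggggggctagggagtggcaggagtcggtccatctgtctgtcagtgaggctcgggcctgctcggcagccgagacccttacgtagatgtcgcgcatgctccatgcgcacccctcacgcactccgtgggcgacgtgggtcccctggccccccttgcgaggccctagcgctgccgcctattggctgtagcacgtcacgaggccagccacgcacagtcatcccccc
The first base of CACGTG lies at -187 from the start in Cntd1, at -29 in Ddx4 and at -55 in Stk31. Sycp3 has the motif at -64 and again at -43. These matches describe the letters of the window only.

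Values are log2 signals as the authors deposited them, so a change of 1 is a doubling, and signals of different genes are not compared. A change is 1 group mean minus another, given ± its standard error, from 3 arrays against 3. A gene is called at an adjusted p under 0.05 in limma, adjusted over 23385 clusters within the comparison. Array medians lay between 7.32 and 7.46, and interquartile ranges between 2.43 and 2.95. The 4 arrays with the widest range were all 12 h controls: replicate 3 of day 1, replicate 2 of day 3 and replicates 2 and 3 of day 5. Calls of the 9 genes that were lost without them are given with and without them. Nanog, the gene under doxycycline control, was at 11.01 to 11.05 on the day 0 arrays, at 10.17 to 10.32 at day 1, at 10.48 to 10.57 at day 3 and at 9.64 to 10.06 at day 5. Its signal was thus 1.74-, 1.44- and 2.27-fold below day 0, a partial fall. From day 1 to day 3 it was called higher (0.27 ± 0.08, adjusted p = 0.0135). It was back at 10.70 to 11.11 on the 9 pulse arrays. Of 10 markers of embryonic stem cells, Nanog among them, none was higher and 7 were lower at day 5. Over all clusters 23.8% were called higher and 18.8% lower there. The mean signal of the 10 markers went from 11.63 at day 0 to 10.91 at day 5. In the day 5 pulse 1 of the 10 was higher and 2 were lower, against 5.13% and 7.1% of all clusters. Their mean was 11.035 in that pulse and 11.027 in its 12 h control.

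**Figure D1:**
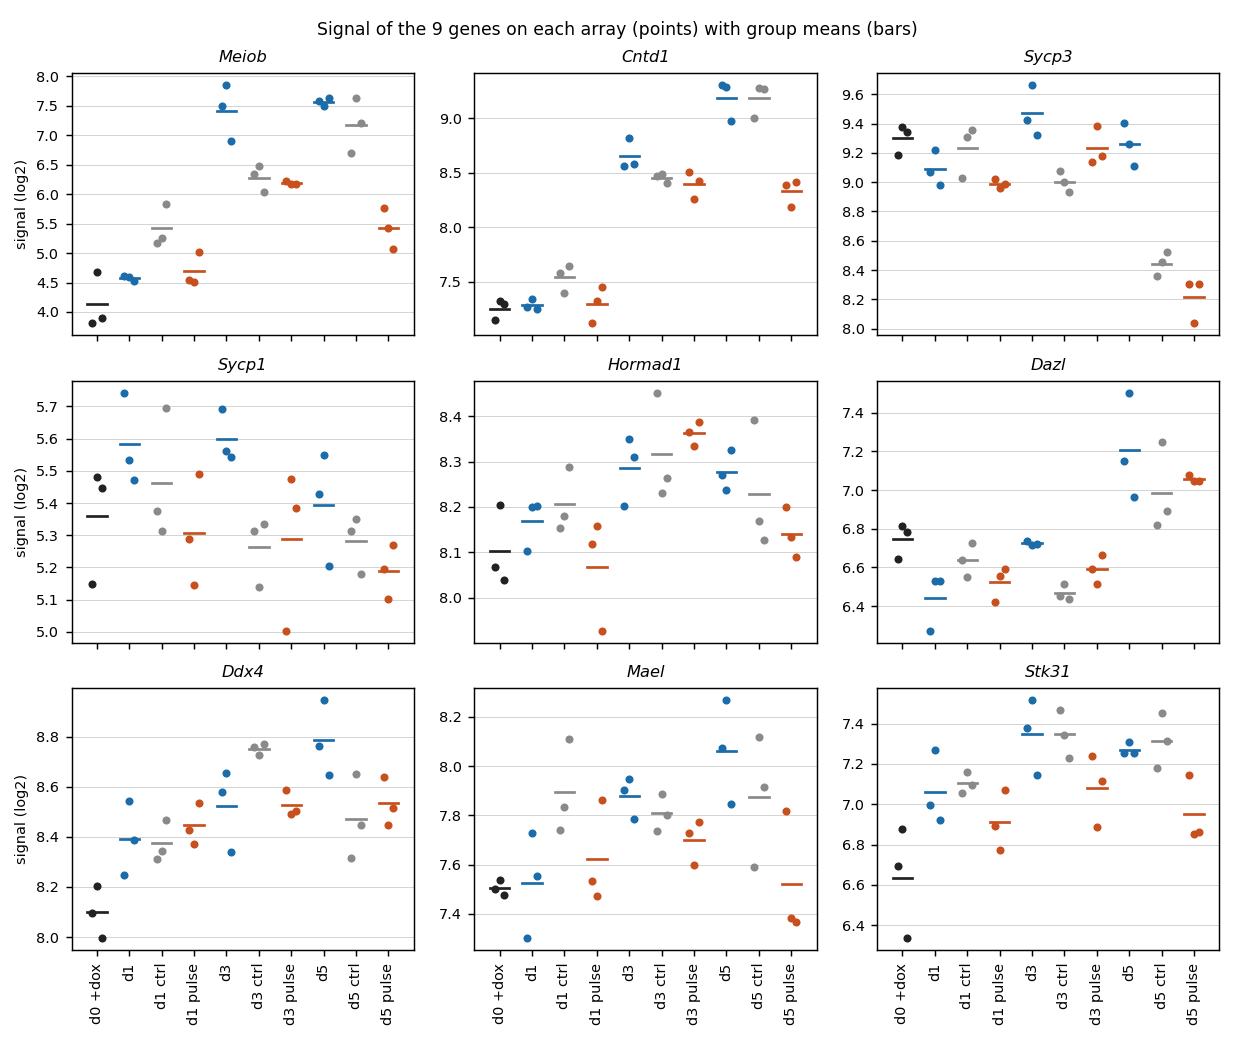
Log2 signal (vertical axes, scaled per gene) of the 9 genes on each of the 30 arrays (points) in 10 groups (horizontal axis), with bars at the group means; ctrl marks 12 h without and pulse 12 h with doxycycline after that day. The group means of Meiob span 3.44 and those of Cntd1 1.93, against 0.29 for Hormad1, and Sycp3 is lowest in the day 5 control and pulse arrays.

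After withdrawal 6 of the 9 genes were called higher by day 5, all but Stk31 first at day 3 or day 5. At day 1 only Stk31 was called. At day 3 Meiob, Cntd1, Stk31, Ddx4 and Mael were higher than at day 0, and at day 5 Dazl had joined them, while the synaptonemal complex genes Sycp1 and Sycp3 and the axis gene Hormad1 were not called against day 0 in this fit. The counts were 1 of 9 higher at day 1, 5 of 9 at day 3 and 6 of 9 at day 5, and none was called lower. Without the 4 widest arrays they were 2 higher and 1 lower at day 1 (Stk31 and Ddx4 higher, Dazl lower), 6 higher at day 3 and 7 higher at day 5, with Hormad1 added on both later days. With array weights Sycp1 (0.33, adjusted p = 0.0111), Sycp3 (0.27, adjusted p = 0.0167) and Hormad1 (0.20, adjusted p = 0.00935) were also called at day 3. Of all tested clusters 3.49% were called higher at day 1, 19.6% at day 3 and 23.8% at day 5. The median change of the 9 genes was 0.06, 0.37 and 0.56 on these days, against 0.02, 0.02 and -0.01 over all tested clusters. The 9 genes were chosen with earlier results of these data known. These counts and medians, and the later counts of the 9, are therefore descriptions and no test against all clusters. In RNA from a whole culture, more cells that express a gene and more of its RNA in each cell cannot be told apart, and likewise for a fall.

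Meiob, a meiosis-specific protein that binds single-stranded DNA during recombination, had the widest range of the 9. Its signal was 3.81, 4.68 and 3.89 on the day 0 arrays and between 4.52 and 4.61 at day 1. It was 7.49, 7.85 and 6.91 at day 3 and 7.58, 7.50 and 7.64 at day 5. All 6 arrays of days 3 and 5 therefore lay above all 6 of days 0 and 1, and the day 0 arrays spread more widely (SD 0.48) than those of day 1 (SD 0.05). At day 5 the signal was 10.9-fold that of day 0 (log2 change 3.44 ± 0.24, adjusted p = 5.12e-12, limma). The mean over all arrays was at the 15.8th percentile of the tested clusters, and no detection calls were used here, so how far the day 0 signal lies above background is not known. Spata22, the protein partner of Meiob, was chosen after its values were seen and changed by 0.01 ± 0.12 at day 5 (adjusted p = 0.948).

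Cntd1, a cyclin-like protein that meiotic crossovers need to mature, followed with smaller steps. It was at 7.15, 7.32 and 7.30 at day 0 and at 7.27, 7.34 and 7.25 at day 1. At day 3 it reached 8.57, 8.81 and 8.58, and at day 5 9.30, 9.28 and 8.97. The arrays of days 0 and 1 overlapped, and those of day 3 and day 5 each stood clear of the days before. The change from day 0 was 1.40 ± 0.10 at day 3 (adjusted p = 5.3e-11) and 1.93 ± 0.10 at day 5 (adjusted p = 3.43e-14).

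Sycp3, Sycp1 and Hormad1 were not called at day 5, and their course was not tested against that of Meiob or Cntd1. Sycp3, a component of the chromosome axis, was at 9.19, 9.38 and 9.34 at day 0 and at 9.41, 9.26 and 9.11 at day 5, so these arrays overlapped (change -0.04 ± 0.10, adjusted p = 0.766). Sycp1, the transverse filament that bridges the axes, lay between 5.15 and 5.48 at day 0. At day 5 it lay between 5.20 and 5.55 (change 0.04 ± 0.12, adjusted p = 0.847). Its mean over all arrays was at the 10.0th percentile of the tested clusters. Without detection calls, how far its signal lies above background is not known. Hormad1, an axis protein that monitors pairing, lay between 8.04 and 8.20 at day 0 and between 8.24 and 8.33 at day 5, with no overlap. Its change of 0.17 ± 0.08 at day 5 was not called (adjusted p = 0.069), nor was that of 0.18 ± 0.08 at day 3 (adjusted p = 0.0672). Both were called without the 4 widest arrays (adjusted p = 0.0396 at day 5 and 0.0373 at day 3) and without replicate 2 of day 0 (0.22, adjusted p = 0.0349, and 0.23, adjusted p = 0.0359). The day 3 change was also called without replicate 1 of day 3 (adjusted p = 0.0497). Both Hormad1 changes were called with array weights, with the interquartile range as covariate and with the lowest 40 percent of signal left out (adjusted p from 0.00935 to 0.0433). At day 5 the second Hormad1 cluster changed by -0.07 (adjusted p = 0.793).

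The called changes of the germ cell genes that act on RNA lay between 0.37 and 0.71. Ddx4 (Vasa), an RNA helicase of germ granules, was at 8.10, 8.20 and 7.996 at day 0 and at 8.76, 8.95 and 8.65 at day 5. No day 5 array fell in the day 0 range, and the change was 0.69 ± 0.09 (adjusted p = 1.03e-06). At day 1 Ddx4 read 8.25, 8.54 and 8.39, already above every day 0 array, but was not called (0.29 ± 0.09, adjusted p = 0.0624). Dazl, an RNA-binding protein that promotes translation in germ cells, lay between 6.64 and 6.81 at day 0 and read 6.27, 6.53 and 6.53 at day 1, below every day 0 array. That day 1 change of -0.30 ± 0.11 was not called (adjusted p = 0.0943), but it was without the 4 widest arrays (adjusted p = 0.0489). At day 3 Dazl lay between 6.71 and 6.74, within the day 0 range. At day 5 it was at 7.15, 7.50 and 6.96, above every day 0 array (change 0.46 ± 0.11, adjusted p = 0.00084).

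Mael, a piRNA pathway protein, lay between 7.48 and 7.54 at day 0, between 7.79 and 7.95 at day 3 and between 7.85 and 8.27 at day 5. Its day 5 change was 0.56 ± 0.14 (adjusted p = 0.00146). The day 3 call (change 0.37 ± 0.14, adjusted p = 0.0352) did not hold without replicate 1, 2 or 3 of day 0 or replicate 1 or 2 of day 3, where the adjusted p ranged from 0.0574 to 0.111. It was also lost on median-centred arrays (adjusted p = 0.103) and after a further quantile normalization (adjusted p = 0.0792).

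Stk31, a kinase-like protein with a Tudor domain found in testis, was at 6.34 to 6.88 at day 0. It was at 6.92 to 7.27 at day 1, at 7.15 to 7.52 at day 3 and at 7.25 to 7.31 at day 5, so no withdrawn array lay in the day 0 range. Its changes were 0.43 ± 0.12 (adjusted p = 0.0355), 0.71 ± 0.12 (adjusted p = 4.95e-05) and 0.64 ± 0.12 (adjusted p = 0.000121). The day 1 call was lost without replicate 1 or 3 of day 0 or replicate 1 or 2 of day 1, with changes of 0.28 to 0.46 and adjusted p from 0.0556 to 0.313. It was also lost in a fit of these 2 groups alone (adjusted p = 0.0999), on median-centred arrays (adjusted p = 0.0582) and after quantile normalization (adjusted p = 0.0862).

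**Figure D2:**
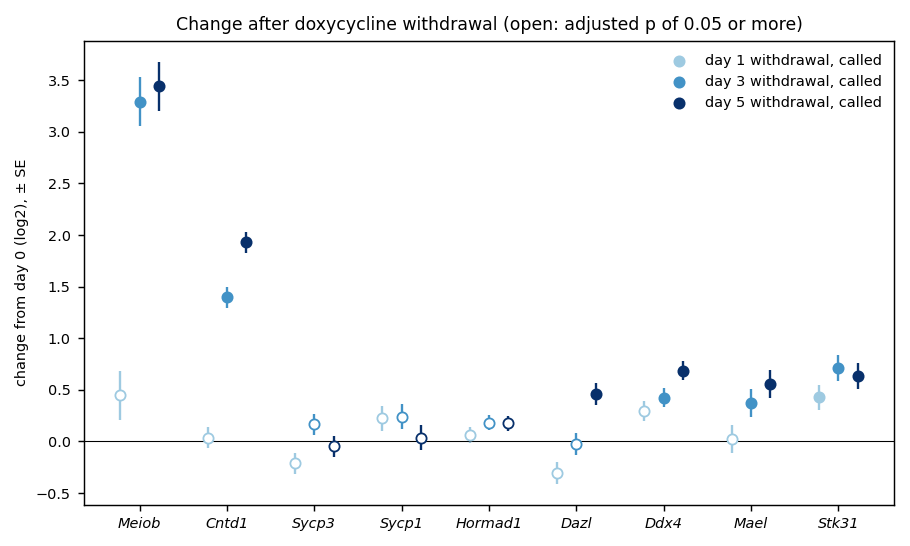
Change from day 0 (vertical axis, log2, bars ± SE, 3 arrays against 3) of the 9 genes (horizontal axis) at days 1, 3 and 5 of withdrawal; filled points were called, open points were not. Meiob stands at 3.29 and 3.44 and Cntd1 at 1.40 and 1.93 on days 3 and 5, and the other called genes lie between 0.37 and 0.71.

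The step from day 1 to day 3 carried most of the rise in Meiob, and the step from day 3 to day 5 raised Cntd1 and Dazl. Between day 1 and day 3 the genes called were Meiob (2.85 ± 0.24, adjusted p = 2.33e-09), Cntd1 (1.36 ± 0.10, adjusted p = 3.61e-10) and Sycp3 (0.38 ± 0.10, adjusted p = 0.00684), 3 of 9 higher against 13.2% of all clusters. Sycp3 was not called in this step without replicate 2 of day 3 (0.28, adjusted p = 0.0755). Between day 3 and day 5 Cntd1 gained 0.53 ± 0.10 (adjusted p = 0.000594) and Dazl 0.48 ± 0.11 (adjusted p = 0.00233), 2 of 9 against 7.59%. Meiob differed by 0.15 ± 0.24 in that step and was not called (adjusted p = 0.826).

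The further 12 h without doxycycline moved Meiob and Sycp3. The Meiob controls of day 1 read 5.17, 5.26 and 5.84, above all 3 day 1 arrays (change 0.85 ± 0.24, adjusted p = 0.0311). The Meiob controls of day 3 read 6.34, 6.47 and 6.04, below all 3 day 3 arrays (change -1.14 ± 0.24, adjusted p = 0.00878). The Meiob controls of day 5 read 6.70, 7.63 and 7.21, which overlap the day 5 arrays (change -0.39 ± 0.24, adjusted p = 0.382). Meiob thus did not move the same way on each day in the time-matched controls, although doxycycline was absent throughout.

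Meiob was the only gene of the 9 called at day 1, against 5.02% of clusters called higher. Its day 1 call was lost without the 4 widest arrays (0.64, adjusted p = 0.091) and on median-centred arrays (adjusted p = 0.0531). It was also lost without any of the day 1 replicates or without control replicate 2 or 3 of day 1, where the adjusted p ranged from 0.064 to 0.146. The day 3 fall was lost without replicate 2 of day 3 (adjusted p = 0.0964) and without replicate 3 of its control (adjusted p = 0.0554). It was also lost in a fit of the 2 groups alone (adjusted p = 0.0791). Without the 4 widest arrays the day 3 fall held (-1.23, adjusted p = 0.00653). The day 5 change of Meiob was then -0.87, with 1 control array left.

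Sycp3 fell over the further 12 h at days 3 and 5. The controls of day 3 lay between 8.93 and 9.07 and the day 3 arrays 9.42, 9.66 and 9.32, with no overlap (change -0.47 ± 0.10, adjusted p = 0.0126). The controls of day 5 read 8.36, 8.45 and 8.52 and the day 5 arrays 9.41, 9.26 and 9.11, again with no overlap. The day 5 change was -0.81 ± 0.10 (adjusted p = 4.44e-05). With Meiob at day 3, these made 2 of 9 lower at day 3 against 0.402% of clusters and 1 of 9 lower at day 5 against 0.984%.

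The day 3 call of Sycp3 was lost without replicate 2 of day 3 (adjusted p = 0.124) or control replicate 2 or 3 (adjusted p = 0.0603 and 0.0612). It was also lost in a fit of the 2 groups alone (adjusted p = 0.102). Without the 4 widest arrays it held (-0.47, adjusted p = 0.0453). The day 5 call held without each array in turn and in the fits without the 4 widest arrays and of the 2 groups alone. Without the 4 widest arrays it was -0.90 (adjusted p = 0.00453).

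Across the 12 h controls of successive days, Cntd1 rose by 0.91 ± 0.10 between days 1 and 3 (adjusted p = 1.06e-06) and by 0.73 ± 0.10 between days 3 and 5 (adjusted p = 1e-05). Meiob rose by 0.86 ± 0.24 (adjusted p = 0.0177) and then 0.90 ± 0.24 (adjusted p = 0.00887). Ddx4 rose by 0.38 in the first interval (adjusted p = 0.00939) and fell by 0.28 in the second (adjusted p = 0.0416), Dazl rose by 0.52 in the second (adjusted p = 0.000943) and Sycp3 fell by 0.56 there (adjusted p = 0.000283). These made 3 of 9 higher in the first interval, against 5.6% of clusters, and 3 higher and 2 lower in the second, against 8.98% and 7.42%. Without the 4 widest arrays Meiob changed by 0.51 in the second interval (adjusted p = 0.402) and Dazl by 0.38 (adjusted p = 0.132), and neither was called. The first Meiob call was lost without control replicate 1 or 2 of day 1 or of day 3 (adjusted p from 0.0659 to 0.0861), and the second without control replicate 3 of day 3 (adjusted p = 0.0573) or control replicate 2 of day 5 (adjusted p = 0.0783). The second Ddx4 call was lost without control replicate 1, 2 or 3 of day 3 or control replicate 1 or 3 of day 5 (adjusted p from 0.0621 to 0.138).

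The 12 h return of doxycycline lowered Meiob and Cntd1 at day 5. The Meiob pulse arrays of day 5 read 5.77, 5.43 and 5.08 against controls of 6.70, 7.63 and 7.21, with no overlap, a 3.38-fold lower signal (log2 change -1.76 ± 0.24, adjusted p = 6.65e-05). The Cntd1 pulse arrays of day 5 read 8.39, 8.18 and 8.42 against 9.002, 9.28 and 9.27, again with no overlap (change -0.85 ± 0.10, adjusted p = 1.86e-05). On these arrays both genes still read above every day 0 array. The other 7 genes were not called, with Stk31 at -0.36 ± 0.12 (adjusted p = 0.0538) and Mael at -0.35 ± 0.14 (adjusted p = 0.0807) the nearest.

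The count was 2 of 9 lower at day 5, against 7.1% of all clusters. That background itself moved with the arrays used: 12.2% of clusters, or 2860, were called either way, but 8617 without control replicate 1 of day 5 and 520 without control replicate 2. Of the 3 day 5 controls, replicates 2 and 3 were among the 4 widest arrays. Without the 4 widest arrays the day 5 control is 1 array, assumed to vary like the other groups, and Meiob was then at -1.28 (adjusted p = 0.0755) and Cntd1 at -0.67 (adjusted p = 0.0493). In a fit of the day 5 pulse and control arrays alone neither was called (adjusted p = 0.0789 for both).

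At day 1 and day 3 limma called none of the 9 genes in the pulse, and 3 of them had an unadjusted p under 0.05 on each day. With array weights limma called 2 at day 1 and 3 at day 3. The Meiob pulse arrays of day 1 read 4.55, 4.51 and 5.01, below all 3 controls (change -0.73 ± 0.24, adjusted p = 0.0907). At day 3 the Meiob pulse arrays read 6.23, 6.18 and 6.18, within the range of the controls (change -0.09 ± 0.24, adjusted p = 0.892). The clusters called in these pulses were 3.75% of all at day 1 and 0.0385% at day 3.

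**Figure D3:**
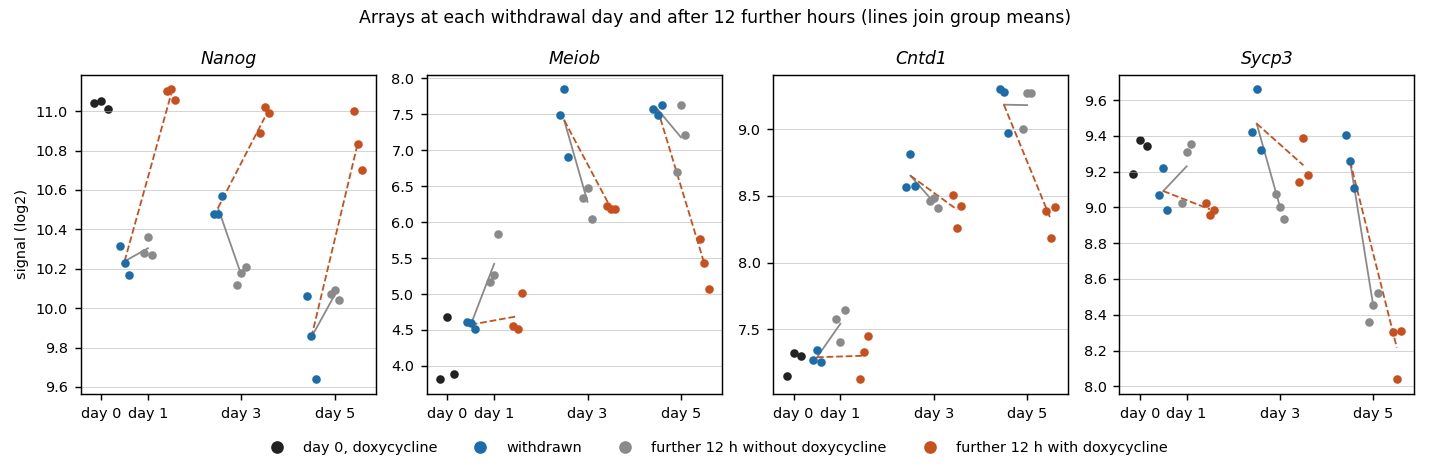
Log2 signal (vertical axes, scaled per gene) of Nanog, Meiob, Cntd1 and Sycp3 on each array at day 0 and, for days 1, 3 and 5, at withdrawal and after 12 h more without (solid line) or with doxycycline (dashed line); lines join group means. Nanog returns to a mean of at least 10.84 in each pulse, Meiob and Cntd1 fall below the controls by 1.76 and 0.85 at day 5, and Sycp3 is at 8.52 or lower in both 12 h groups of day 5.

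The fall of Meiob and of Cntd1 in the pulse differed between day 5 and day 3. The difference was -1.67 ± 0.33 for Meiob (adjusted p = 0.0223) and -0.80 ± 0.14 for Cntd1 (adjusted p = 0.00993), 2 of 9 lower against 0.582% of clusters. Without the 4 widest arrays neither difference was called (Meiob -1.28, adjusted p = 0.138, and Cntd1 -0.63, adjusted p = 0.13). Neither was called in a fit of these 4 groups alone (adjusted p = 0.0901 for both). The Meiob difference was also lost without control replicate 1 or 3 or pulse replicate 3 of day 3, or pulse replicate 2 or 3 of day 5 (adjusted p from 0.0551 to 0.0641), and that of Cntd1 reached an adjusted p of 0.05 without pulse replicate 2 of day 5. Between day 5 and day 1 the differences were -1.03 ± 0.33 for Meiob (adjusted p = 0.212) and -0.61 ± 0.14 for Cntd1 (adjusted p = 0.0869), and limma called none of the 9, while 2 had an unadjusted p under 0.05 and array weights gave 2 calls. Between day 3 and day 1 limma also called none, with 2 at an unadjusted p under 0.05 and 1 with array weights. The clusters called in these comparisons were 0.111% and 0.00855% of all.

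The change over the further 12 h without doxycycline also differed between days for Meiob and Sycp3, in comparisons added after seeing the data. Against day 1, both genes had a lower change at day 3, 2 of 9 against 1.63% of clusters, and at day 5, 2 of 9 against 3.02%. For Meiob the day 3 change of -1.14 differed from the day 1 change of 0.85 by -1.98 ± 0.33 (adjusted p = 0.00127). Without the 4 widest arrays the day 5 change differed from the day 1 change by -1.51 for Meiob and -0.98 for Sycp3. Mael, not called over all arrays, differed by -0.73 in that fit, which leaves 1 day 5 control array. Between day 5 and day 3 limma called none of the 9, with 3 at an unadjusted p under 0.05 and 2 calls with array weights, against 0.103% of clusters.

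Set in order of their group means, the levels of Meiob fell into 4 blocks whose neighbouring arrays did not overlap. Day 0 (4.13), day 1 (4.57) and the day 1 pulse (4.69) came first, then the day 1 control (5.42) and the day 5 pulse (5.42). The day 3 pulse (6.20) and day 3 control (6.28) followed, and the day 5 control (7.18), day 3 (7.42) and day 5 (7.57) came last. Within a block neighbours overlapped. Cntd1 had day 0 and the 3 day 1 groups together (7.26 to 7.54), then the day 5 pulse, the day 3 pulse and the day 3 control (8.33 to 8.45), then day 3 (8.65), then the day 5 control and day 5 (9.18 and 9.19). Sycp3 had the day 5 pulse lowest (8.22) and the day 5 control next (8.44), and its other 8 groups (8.99 to 9.47) overlapped each with the next. The group means of the other genes spanned 0.76 for Dazl, 0.71 for Stk31, 0.69 for Ddx4, 0.56 for Mael, 0.41 for Sycp1 and 0.29 for Hormad1.

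Genes that work with these 9 moved in part with them. The lists named here were written with earlier results of these data known, and their counts are descriptions. Over all clusters 23.8% were called higher and 18.8% lower at day 5 of withdrawal. At day 5 of withdrawal 3 of 4 genes of meiotic cohesin, the complex that holds sister chromatids together in meiosis, were higher and none lower, with a list median of 0.88 against -0.01 for all clusters. Stag3 rose by 1.27 ± 0.10 (adjusted p = 1.4e-10), Smc1b by 1.25 ± 0.14 (adjusted p = 4.16e-08) and Rec8 by 0.51 ± 0.08 (adjusted p = 1.04e-05). Of 4 measured genes of meiotic entry 2 were higher and none lower (median 0.40), Stra8, the retinoic acid target that starts meiosis, by 1.09 ± 0.16 and Meioc, which stabilizes the meiotic programme, by 0.62 ± 0.14. Of 5 other measured genes of the synaptonemal complex and axis 2 were higher and none lower (median 0.16), with Sycp2 at 0.37 and Tex12 at 0.29. The day 5 means of Sycp2 and Tex12 were only 4.95 and 4.36. Without detection calls, how far these signals lie above background is not known.

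Genes of recombination and crossover formation were called in both directions. Of 16 measured, 6 were higher and 3 lower (median 0.14), against 23.8% and 18.8% of all clusters. The lower count is near that share and is not read as a result about the list. Dmc1, the meiotic strand-exchange protein, rose by 0.92 ± 0.12 and the helicase Hfm1 by 0.97 ± 0.17, while Ccnb1ip1, a crossover regulator, fell by 1.29 ± 0.09 (adjusted p = 3.77e-12). Of 15 measured piRNA pathway genes 8 were higher and 1 lower (median 0.51). The RNA helicase Mov10l1 rose by 1.34 ± 0.11, and the Tudor proteins Tdrkh by 1.09 ± 0.10 and Rnf17 by 1.06 ± 0.10. The only piRNA gene that fell was Piwil4, by 0.82, which was singled out after its value was seen.

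Among 21 other measured germ cell genes 9 were higher and 2 lower (median 0.18), led by the transcription factor Sohlh2 at 1.20 ± 0.11, Taf7l at 1.08 ± 0.15 and the homeobox gene Rhox9 at 1.04 ± 0.10. Of 19 genes that repress germline promoters in other cells 4 were higher and 6 lower (median 0.03). The higher count is near the 23.8% of all clusters called higher. The DNA methyltransferase Dnmt3a fell by 1.09 ± 0.08 (adjusted p = 5.17e-11), and the PRC1.6 subunits L3mbtl2 by 0.71 ± 0.07 and Wdr5 by 0.57 ± 0.08. The genes of this list called higher were Mga, E2f6, Ring1 and Dnmt1, chosen for naming after their values were seen, at 0.54, 0.50, 0.19 and 0.17.

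In the day 5 pulse no gene of these 7 lists was called higher, and of all clusters 5.13% were called higher and 7.1% lower. The piRNA list had 5 of 15 genes lower, the recombination list 3 of 16, the cohesin list 2 of 4, and the entry and synaptonemal complex lists 1 of 4 and 1 of 5. The other germ cell list, with 2 of 21, and the repressor list, with 2 of 19, were near the share of all clusters. Tdrd12, a piRNA pathway helicase, was lower by 0.78 (change -0.78 ± 0.11, adjusted p = 0.000147). Meioc changed by -0.57 ± 0.14, Dmc1 by -0.48 ± 0.12, Hormad2 by -0.47 ± 0.12, Msh5 by -0.47 ± 0.08 and Sohlh2 by -0.44 ± 0.11. Stag3 changed by -0.34 ± 0.10 (adjusted p = 0.0341), Tdrd7 by -0.35, Rec8 by -0.31, Dnmt3l by -0.32 and Pcgf6 by -0.30. Without the 4 widest arrays none of these lists had a called gene in the day 5 pulse, with 1 control array left. In the day 1 pulse the 7 lists together had 1 gene higher and 2 lower, while 3.75% of all clusters were called either way. Of 16 recombination genes 1 was lower, and of 21 other germ cell genes 1 was higher and 1 lower. The remaining lists had none. The lower germ cell gene was Prdm1, a regulator of early germ cells, at -0.53 ± 0.11 (adjusted p = 0.00698). So few calls are not read as a result about the lists.

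**Figure D4:**
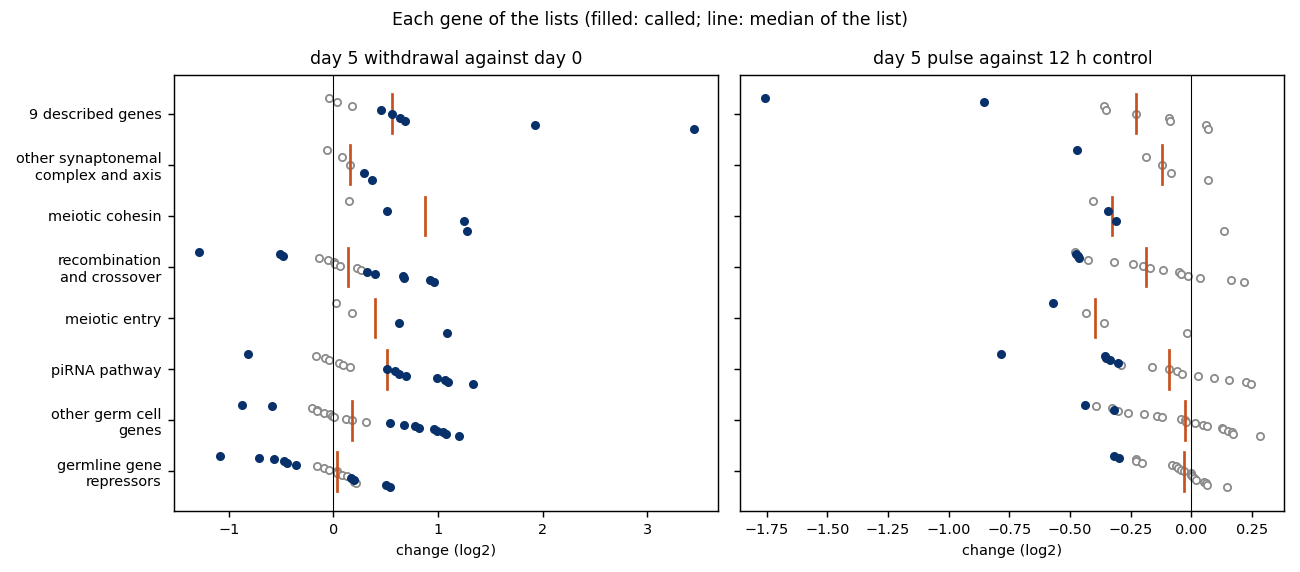
Change (horizontal axes, log2) of each measured gene of the 9 described genes and of 7 gene lists (rows) at day 5 of withdrawal against day 0 (left) and in the day 5 pulse against its control (right); filled points were called and vertical bars mark each list's median. The withdrawal medians run from 0.03 for the repressors to 0.88 for meiotic cohesin, and every filled point of the pulse panel lies below 0.

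Markers of other cells moved with withdrawal as well. Over all clusters 3.49% were called higher at day 1, 19.6% at day 3 and 23.8% at day 5, with 18.8% lower at day 5. At day 5, 8 of 12 trophectoderm markers were higher and none lower, and their mean signal went from 7.57 to 7.61 on the day 0 arrays to 8.79 to 8.91. Of 12 extraembryonic endoderm markers 6 were higher and 1 lower (7.92 to 7.98 against 8.37 to 8.43). Of 11 measured feeder fibroblast markers 6 were higher and 1 lower (7.02 to 7.10 against 7.29 to 7.395). Of 5 measured markers of 2-cell-like cells 2 were higher and none lower at day 1 (median 0.45), 3 were higher and none lower at day 3 (median 0.51), and 2 were higher and 2 lower at day 5 (median 0.26). Their mean signal was 6.25 to 6.30 on the day 0 arrays, 6.62 to 6.88 at day 1, 6.52 to 6.73 at day 3 and 6.39 to 6.60 at day 5. At day 3, 8 trophectoderm markers were higher and none lower, 4 endoderm markers higher and 1 lower, and 5 feeder markers higher and 1 lower. The part of all these markers in the changes of the germline genes was not tested. In the day 5 pulse 1 trophectoderm and 1 feeder marker were higher and 1 of each was lower. No endoderm marker was called there and 1 marker of 2-cell-like cells was lower. Over all clusters 5.13% were called higher and 7.1% lower in that pulse. So few calls are not read as a result about these markers.

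Across the 10 group means, Meiob and Cntd1 went together (r = 0.94, Pearson), as did Meiob and Stk31 (r = 0.86) and Meiob and Mael (r = 0.84), while Meiob and Sycp3 did not (r = 0.03). The genes most like a member were sought among 1153 genes whose group means span at least 1. For Meiob they were Txnip, an inhibitor of thioredoxin (r = 0.99), Olfr1372-ps1 (r = 0.98) and the scaffold gene Pdzk1 (r = 0.98). For Cntd1 they were the cohesin gene Stag3 (r = 0.99), Sccpdh (r = 0.98) and Cd55 (r = 0.98). For Sycp3 the closest were Sfrp2, Adam23 and Car13, at r = 0.85 each. These are descriptions over 10 points that share arrays and the course of withdrawal, chosen as the closest of many.

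**Figure D5:**
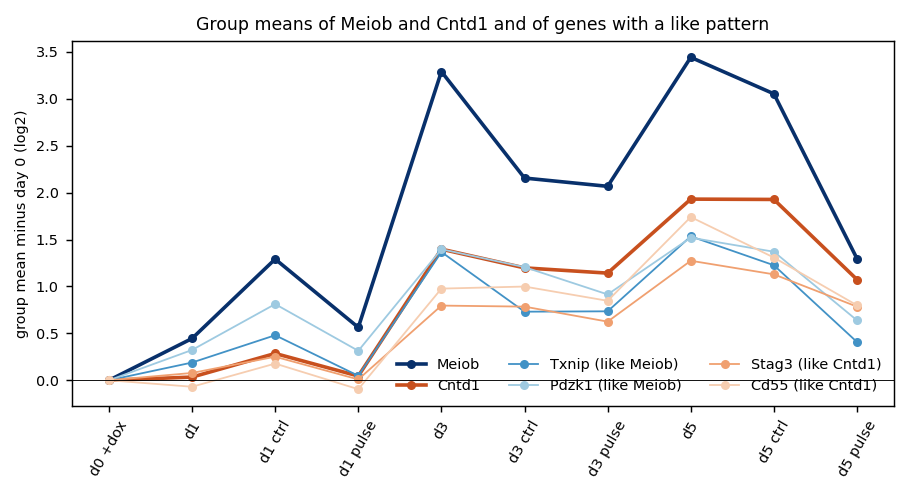
Group means relative to day 0 (vertical axis, log2) over the 10 groups (horizontal axis) for Meiob and Cntd1 (thick lines) and for genes chosen for a like pattern (thin lines: Txnip and Pdzk1 for Meiob, Stag3 and Cd55 for Cntd1). Meiob and its like genes dip in both 12 h groups of day 3 and in the day 5 pulse, and Cntd1 reaches 1.93 at day 5.

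Genes next to the risers in the genome did not all rise with them. Hagh, beside Meiob, was higher at day 5 by 0.45 ± 0.08 (adjusted p = 2.65e-05) and at -0.20 ± 0.08 in the day 5 pulse (adjusted p = 0.0849). Beside Cntd1, Coa3 was lower at day 5 (-0.45 ± 0.10, adjusted p = 0.00046) and Becn1 was at -0.03 ± 0.07 (adjusted p = 0.728). Beside Sycp3, Chpt1 was higher at day 5 (0.60 ± 0.13, adjusted p = 0.000574), where Sycp3 itself was at -0.04.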

How the data were processed

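Each of 30 samples of total RNA had its own Mouse Gene 1.0 ST array (Affymetrix). Per the submitters' processing notes, the authors ran RMA through Affymetrix Expression Console, and they deposited log2 signals per transcript cluster. RMA corrects background, equalizes the arrays' distributions and summarizes probes. Software versions and the array's genome build are not given in the sources used here. Of 28815 clusters, 21780 carried 1 gene symbol in the platform table, 1605 several and 5430 none. The 23385 with a symbol were fitted in limma 3.58.1 (R 4.3.3) with 1 mean per group over all 30 arrays and no covariate, and p-values were adjusted by Benjamini-Hochberg within each comparison. The fit was tested on simulated data. The labels give no batch. None of 30 replicate pairs was identical. The number of arrays limits the precision.

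The 9 genes and all lists were chosen with earlier results of these data known. Of each list, up to 3 called genes with the largest change at day 5 of withdrawal and up to 2 called in a pulse are named. Alternatives were a minimum change of 1, trend and robust variances, array weights, only the compared groups, median centring, a further quantile normalization, leaving out the lowest 40 percent of signal, the mean over a gene's clusters, clusters without a symbol included, a replicate block, an array covariate and each array left out. The fit without the 4 widest arrays and the comparisons of the further 12 h between days were added after seeing the data. Promoter letters came from RefSeq (GRCm38.p6).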

Additional observations from a re-analysis of the deposited data

Results flagged for a closer look

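The pulse effect differed between days for 2 genes. For Meiob the day 5 pulse effect minus the day 3 pulse effect was -1.67 ± 0.33 (adjusted p = 0.0223, limma), from effects of -1.76 and -0.09. For Cntd1 it was -0.80 ± 0.14 (adjusted p = 0.00993), from effects of -0.85 and -0.06. Neither held without the 4 widest arrays.

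The change over the further 12 h without doxycycline also differed between days, in comparisons added after the data were seen. For Meiob the day 3 change minus the day 1 change was -1.98 ± 0.33 (adjusted p = 0.00127), from -1.14 and 0.85, and the day 5 change minus the day 1 change was -1.24 ± 0.33 (adjusted p = 0.027). For Sycp3 the day 3 difference from day 1 was -0.60 ± 0.14 (adjusted p = 0.0187) and the day 5 difference from day 1 was -0.95 ± 0.14 (adjusted p = 0.000314). The background was 1.63% of clusters called lower for day 3 against day 1 and 3.02% for day 5 against day 1. Between day 5 and day 3 limma called none of the 9 genes, 3 had an unadjusted p under 0.05, and array weights gave 2 calls.

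The day 3 difference of Sycp3 was lost without the 4 widest arrays (-0.54, adjusted p = 0.062) and without replicate 3 of day 1, control replicate 2 of day 1, replicate 2 of day 3 or control replicate 3 of day 3 (adjusted p from 0.0551 to 0.0807). The day 5 difference of Meiob was lost without replicate 1 or 3 or control replicate 3 of day 1, replicate 3 of day 5, or control replicate 1 or 3 of day 5 (adjusted p from 0.0516 to 0.0712).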

How the results depend on the processing

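Values here are how many of the 9 genes were called, and no called change reversed in any alternative. Of 591 checks of a called gene under an alternative, 509 kept the call and 82 lost it. These checks leave out the differences of the further 12 h between days. They also leave out genes removed by the low filter under that filter. The limits are 3 arrays a group, no detection calls, controls of unequal spread and no batch labels. The low filter left only 5 of the 9 genes in the test and removed Meiob, Sycp1, Dazl and Stk31. The causes of the changes below were not tested.

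For withdrawal, the day 1 count of 1 became 0 with a minimum change of 1, with only the compared groups or with median centring, 2 with trend and robust variances, and 3 with array weights, the interquartile range as covariate or without the 4 widest arrays. Day 3 (5) gave 2 with the minimum change and 8 with array weights, and day 5 (6) gave 2 with the minimum change. The step from day 1 to day 3 (3) gave 7 with array weights and 5 with only the compared groups, the covariate or without the widest arrays. The step from day 3 to day 5 (2) gave 0 with the minimum change and 4 with weights. The control steps (3 and 5) gave 0 each with the minimum change, and the later one gave 3 with only the compared groups, the low filter or without the widest arrays.

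For the further 12 h, day 1 (1) gave 0 with the minimum change, median centring, the low filter or without the widest arrays. Day 3 (2) gave 1 with the minimum change or the low filter and 0 with only the compared groups. Day 5 (1) gave 0 with the minimum change, 2 with trend and robust variances, weights, quantile normalization or the low filter, and 4 with the covariate. Of its differences between days, day 3 against day 1 (2) gave 1 with the minimum change, only the compared groups or without the widest arrays. Day 5 against day 3 (0) gave 2 with weights and 1 with quantile normalization or the covariate, and day 5 against day 1 (2) gave 1 with the minimum change or low filter and 4 with the covariate.

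For the pulses, weights gave 2 at day 1 (0), 3 at day 3 (0) and 5 at day 5 (2). Day 5 also gave 1 with the minimum change, the low filter or without the widest arrays, and 0 with only the compared groups. The difference of day 3 against day 1 (0) gave 1 with weights. Day 5 against day 3 (2) gave 1 with the minimum change or low filter and 0 with only the compared groups or without the widest arrays. Day 5 against day 1 (0) gave 2 with weights and 1 with trend and robust variances, the low filter or the covariate.

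With 1 array left out, counts ranged from 0 to 1, 4 to 5 and 6 to 7 for the withdrawals, 2 to 5 and 2 to 3 for the steps, and 2 to 3 and 3 to 4 for the control steps. They ranged from 0 to 1, 0 to 2 and 1 to 2 for the further 12 h, and from 2 to 4 for the day 5 pulse, with 0 throughout for the other pulses. Differences between days ranged from 0 to 0 (day 3 against day 1), 0 to 2 (day 5 against day 3) and 0 to 2 (day 5 against day 1) for the pulses, and in the same order from 1 to 2, 0 to 0 and 1 to 4 for the further 12 h. Deviations of same-numbered arrays had a median r of -0.01, with 36 of 135 pairs over 0.1. For differently numbered arrays it was 0.004, with 89 of 270 over 0.1. Single pairs ranged from -0.72 to 0.57 and from -0.69 to 0.60. With so wide a range these values show no pairing but cannot exclude it, and the labels do not state it. The replicate block gave 4 instead of 3 in the step from day 1 to day 3 and the same count in every other comparison.

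Over all clusters, calls in the day 1 withdrawal were 1522, 821 without replicate 3 of day 0 and 3859 with weights. The day 3 pulse gave 9 calls and 1865 with weights. The day 5 pulse gave 2860, 11154 with weights and 0 with only the compared groups.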
